A study of Mus musculus with 4 samples.

Results

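Genes of glycolysis and of the response to low oxygen were followed on arrays of E14 mouse embryonic stem cells after RNA interference against Npac. The members were a list of 51 gene symbols of glycolysis, the neighbouring pentose phosphate pathway, the hypoxia-inducible factors (HIF) and their targets. Of these, 47 were named by a single symbol in the platform annotation and could be tested among 18194 genes in all. Ero1l was matched as Ero1a, its current symbol. Gapdh was read by the manufacturer's control probe sets for that gene, since its other probe sets also carry pseudogene symbols. Bnip3l shares its probe sets with a pseudogene, and Bnip3l, Gpi1, Eno1 and G6pdx were not analysed here.

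Both groups were E14 cells grown with LIF, the cytokine that keeps these cells undifferentiated, at 1000 units per ml and with 15% serum. They carried either a hairpin against Npac (Npac RNAi, 2 arrays) or a control hairpin (control RNAi, 2 arrays), and were placed under puromycin 24 hours after transfection for 3 days of selection. The sources used here give neither the target of the control hairpin nor the oxygen level of the cultures. Nothing in the labels says that replicate arrays came from separate cultures, so p-values measure the spread between these arrays, which may be technical.

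Glycolysis splits glucose into pyruvate, which is reduced to lactate or oxidised in mitochondria, and embryonic stem cells are known for a high flux through it. HIF is a transcription factor of an oxygen-labile alpha subunit (Hif1a or Epas1) and a stable partner (Arnt). With oxygen present, prolyl hydroxylases (Egln genes) mark the alpha subunit for destruction by the Vhl ubiquitin ligase, so HIF activity is set largely at the protein level, which arrays do not read. When oxygen falls, HIF raises glucose transporters, most glycolytic enzymes, pyruvate dehydrogenase kinase, and genes of mitochondrial turnover, acid balance and blood vessel growth.

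HIF binds a short core, ACGTG or GCGTG, and the 250 bases before the gene start are shown for members that are textbook HIF targets and moved in opposite directions. Bnip3 and Slc2a1 were higher in Npac RNAi, and Pgk1 and Ldha were lower. Capitals mark every copy of the core on either strand, where CACGT and CACGC are the same letters read on the other strand and copies may overlap. Sequences are from RefSeq, build GRCm38.p6, along the strand of the gene, and for Ldha the window is that of its first listed start.
Bnip3, chr7:138909507-138909756, minus strand: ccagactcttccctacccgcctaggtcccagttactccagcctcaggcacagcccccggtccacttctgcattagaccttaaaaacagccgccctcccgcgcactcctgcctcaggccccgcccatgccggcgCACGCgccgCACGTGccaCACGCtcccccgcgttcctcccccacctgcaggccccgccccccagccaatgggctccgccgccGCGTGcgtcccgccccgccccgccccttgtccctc
Slc2a1, chr4:119108495-119108744, plus strand: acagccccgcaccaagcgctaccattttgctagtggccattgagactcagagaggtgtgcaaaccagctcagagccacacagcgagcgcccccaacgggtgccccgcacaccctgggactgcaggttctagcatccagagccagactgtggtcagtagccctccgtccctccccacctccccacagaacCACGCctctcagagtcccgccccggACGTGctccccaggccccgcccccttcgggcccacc
Pgk1, chrX:106186850-106187099, plus strand: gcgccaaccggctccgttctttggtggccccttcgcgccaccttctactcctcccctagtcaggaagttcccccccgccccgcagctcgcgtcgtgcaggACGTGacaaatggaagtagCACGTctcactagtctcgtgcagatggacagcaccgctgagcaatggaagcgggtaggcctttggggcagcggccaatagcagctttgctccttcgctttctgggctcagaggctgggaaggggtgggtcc
Ldha, chr7:46845554-46845803, plus strand: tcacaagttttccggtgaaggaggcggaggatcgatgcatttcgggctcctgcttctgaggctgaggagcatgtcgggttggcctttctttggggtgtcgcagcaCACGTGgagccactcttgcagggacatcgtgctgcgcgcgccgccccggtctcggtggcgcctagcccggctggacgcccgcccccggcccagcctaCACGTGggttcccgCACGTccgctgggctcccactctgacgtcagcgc

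The core stood before both kinds of member. At least 1 copy lay in the windows of 14 of 17 members that were higher, 10 of 11 that were lower and 15 of 16 without a call, over the 44 tested members that have such a window. That is 88.6% of these members, against 53.6% of the 14453 measured genes with a window and 41.5% of all 27025. ACGTG alone lay before 47.1% of the higher, 36.4% of the lower and 68.8% of the uncalled members. Among measured genes with a window this share was 22.5%. Pgk1 and Ldha are among the 4 lower members with ACGTG. The 6-base form CACGTG, which holds ACGTG on both strands, was present 1 time in the window of Bnip3 and 2 times in that of Ldha. The window of the other listed start of Ldha held 1 GCGTG and no ACGTG. A match of 5 letters is a description of the window and not evidence of binding.

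The targeted gene, Glyr1 (the current symbol of Npac), read 11.30 and 11.32 on the control arrays and 10.23 and 10.20 on the Npac RNAi arrays, a fall of 1.09 on the log2 scale (SE 0.0458, limma adjusted p = 0.00101). Members moved in both directions. Of the 47 measured members 19 rose and 11 fell (63.8% called), where 40.8% of all genes passed the same test. At or above the median level 26 of 40 members (65.0%) were called, against 53% of genes at that level. By direction, 40.4% of members rose and 23.4% fell, against 22.1% and 18.7% of all genes. The median log2 difference was 0.10 for the members and -0.04 for all genes. The threshold for a call, here and below, was an adjusted p of 0.05 in limma's test over all 18194 genes.

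A difference of at least 1.5-fold was found for 11 members, 9 higher and 2 lower (23.4% of the members). Of all genes 10.1% passed this rule, 8.09% higher and 2.04% lower. The higher ones were the stress-responsive gene Ndrg1, the vasodilator peptide gene Adm, the muscle enolase Eno3, the mitophagy gene Bnip3, the glycolytic activator Pfkfb3, the neuronal enolase Eno2, the glucose transporter Slc2a1, the pentose phosphate enzyme Pgd and the carbonic anhydrase Car12. The lower ones were the platelet-type phosphofructokinase Pfkp and the kinase Pdk1, which restrains pyruvate oxidation. The other 9 members that fell were Gapdh, Pgk1, Pkm, Ldha and Ldhb, the lactate carrier Slc16a1, the transketolase Tkt, the HIF partner Arnt and the cytokine gene Mif. Abundant enzymes did not all move this way, since Tpi1 rose and Aldoa, Pgam1, Taldo1 and Hk2 had no call. The groups did not overlap for 40 of 47 members (85.1%), as they did not for 74.2% of all genes.

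**Figure D1:**
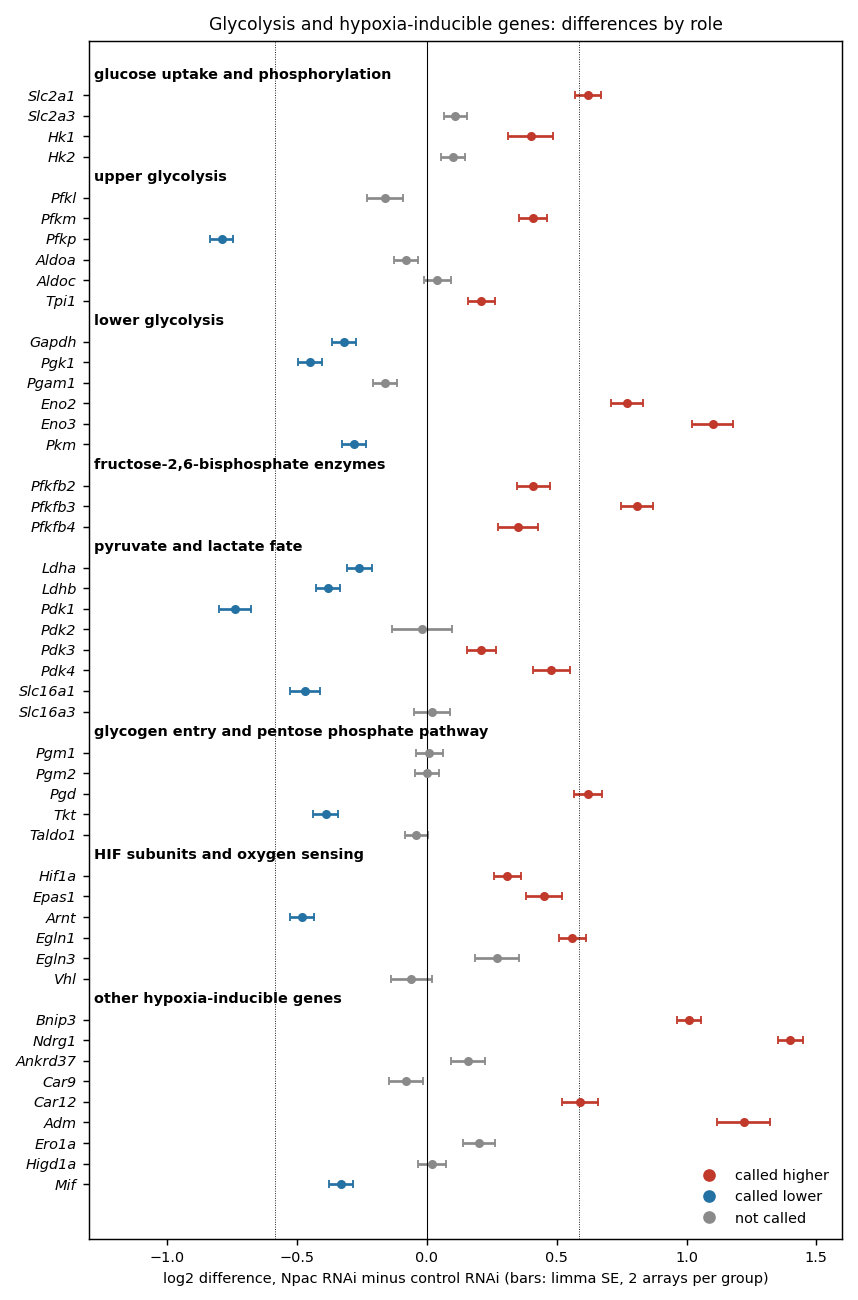
Log2 difference of each of the 47 measured members, Npac RNAi minus control RNAi, ordered by role; bars are limma's SE with 2 arrays per group, dotted lines mark 1.5-fold, and colour marks the call at an adjusted p under 0.05. Differences run from -0.79 (Pfkp) to 1.40 (Ndrg1), and most role groups hold calls in both directions.

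The counts depended on the scaling and on single arrays. They were 17 higher and 12 lower after quantile normalization, where 3517 of all 18194 genes were higher and 3671 lower. Cyclic loess gave 19 and 12 members, and 4047 and 2887 of all genes. Centring each array on the median gene gave 15 and 15 members, and 2847 and 7170 of all genes. It moved the median of all genes from -0.04 to -0.18. Poly-A spike-ins are bacterial transcripts of a kind added to RNA before labelling. Their probe sets stood 0.54 above the control arrays in Npac RNAi, and scaling on them moved the median of all genes to -0.58. It gave 6 higher and 31 lower members (78.7% called), where 906 of all genes were higher and 14897 lower (86.9%). The 6 that were called higher in every scaling were Ndrg1, Adm, Eno3, Bnip3, Pfkfb3 and Eno2, and the 11 lower members were lower in all 5. With any 1 array left out fewer members were called, and fewer of all genes as well. Without moderation of the variances 7 members and 1558 of all genes were called higher. Among members with at least 1.5-fold the calls on Adm, Eno3 and Car12 were lost. Every direction given here is therefore one against the other transcripts on the array, as RMA sets them.

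**Figure D2:**
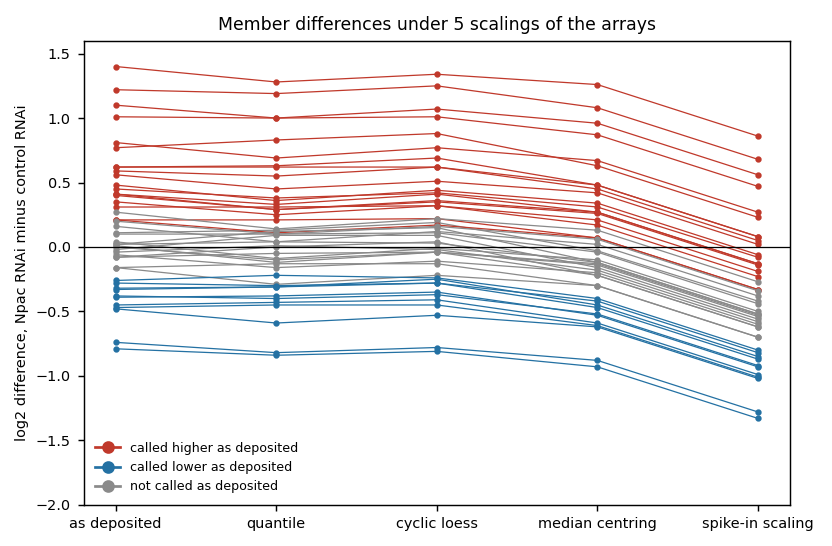
Log2 difference of each of the 47 measured members (1 line each), Npac RNAi minus control RNAi, on the deposited values and under 4 further scalings, coloured by the call on the deposited values. Spike-in scaling lowers every value by 0.54, so that the median of the members goes from 0.10 to -0.44. Under it 6 members stay called higher, where 906 of all genes were called higher and 14897 lower.

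Markers of pluripotency and of trophectoderm and trophoblast moved with the group as well. Of 10 pluripotency markers 8 were lower and 0 higher, and their mean level was 12.42 on both control arrays and 11.92 and 11.94 on the Npac RNAi arrays, so defining markers of the labelled cells were well detected in both groups. Of 11 measured trophectoderm and trophoblast markers 9 were higher and 0 lower, with mean levels of 8.10 and 8.07 against 9.52 and 9.56, while Elf5 and Tpbpa lay below the 25th percentile of all genes by level. Feeder fibroblast markers gave 2 higher and 2 lower of 12, with mean levels of 6.70 and 6.63 against 6.73 and 6.71, and extraembryonic endoderm markers 4 and 2 of 12, with 8.99 and 8.92 against 9.22 and 9.27. The part of these cell types in the differences of the members was not tested, and in such bulk RNA fewer cells of a type and less RNA per cell cannot be told apart.

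At the entry of the pathway, 2 of 4 members rose and none fell. Of all genes 40.8% were called, and 53% of those at or above the median level, where these members lie. The share called was thus near that of genes at this level. Slc2a1, the widely expressed glucose transporter Glut1, read 13.61 on both control arrays and 14.20 and 14.27 on the Npac RNAi arrays. The groups lay far apart compared with their spread, and the difference was 0.62 or 1.54-fold (SE 0.0511, limma adjusted p = 0.00315). All 3 of its probe sets were called higher, at 0.62, 0.81 and 1.11, and the brightest, used here, gave the smallest value. With spike-in scaling the difference was 0.08 and not called. Slc2a3, the high-affinity transporter Glut3, read 14.27 and 14.24 in control and 14.37 on both Npac RNAi arrays, which did not pass the test (0.11, SE 0.0458, limma adjusted p = 0.113). It was called higher after cyclic loess (0.19) and lower with spike-in scaling (-0.42). Hexokinases trap glucose in the cell by phosphorylation. Hk1 rose (0.40, limma adjusted p = 0.0281), but its call was lost without control array 2 or either Npac array and after centring (0.26). Its dimmer probe set read -0.04, and the mean of both gave 0.18 without a call. Hk2, the hexokinase most often named as a HIF target, read 11.91 and 11.93 in control and 12.03 and 12.01 in Npac RNAi, a difference of 0.10 without a call (SE 0.0463, limma adjusted p = 0.143). Hk1 and Hk2 turned below 0 with spike-in scaling, where Hk2 was called lower and Hk1 had no call.

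In the upper part of glycolysis the isozymes of phosphofructokinase, which commits sugar to the pathway, parted. Pfkp read 10.96 on both control arrays and 10.16 and 10.18 on the Npac RNAi arrays. It was the member that fell most, by 0.79 on the log2 scale or 1.73-fold (SE 0.0453, limma adjusted p = 0.00165), and its 3 probe sets gave -0.79, -0.77 and -1.05. The muscle type Pfkm rose by 0.41 (SE 0.0544, limma adjusted p = 0.00832), with calls lost when either control array was left out and a value of -0.13 with spike-in scaling. The liver type Pfkl was -0.16 without a call, although it was called lower after quantile normalization (-0.29), centring (-0.30) and cyclic loess (-0.22), and on 1 of its 2 other probe sets (-0.25). Taking the change of Pfkm minus that of Pfkp within each array removes any constant shift of an array: it was 1.16 and 1.24 on the Npac RNAi arrays and -0.01 and 0.01 on the control arrays, which set the origin. For Slc2a1 minus Slc2a3 the same measure was 0.47 and 0.55 in Npac RNAi. These and the other 2 such pairs given below were chosen after their values were seen, and with 2 arrays against 2 an exact two-sided permutation test cannot go below p = 0.333.

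The aldolases and triose phosphate isomerase split and interconvert the sugar phosphates. Aldoa (-0.08) and Aldoc (0.04) had no call, and the 5 probe sets of Aldoa lay between -0.21 and -0.08, each without a call. Spike-in scaling (-0.62), centring (-0.22) and the probe set of largest interquartile range (-0.20) each made Aldoa a call, lower in Npac RNAi. Tpi1 rose by 0.21 (1.16-fold, limma adjusted p = 0.0363). That call was lost without any 1 of the 4 arrays and after centring. With spike-in scaling Tpi1 was called lower (-0.33).

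Of the 6 measured enzymes of the lower part, Gapdh, Pgk1 and Pkm fell, the muscle and neuronal enolases rose, and Pgam1 had no call. That is 83.3% called, against 40.8% of all genes. Gapdh, the oxidising enzyme often taken as a housekeeping control, read 13.92 and 13.95 in control and 13.61 and 13.63 in Npac RNAi. The arrays of a group were close and the groups apart, at a fall of 0.32 on the log2 scale or 1.24-fold (SE 0.0465, limma adjusted p = 0.0107). The 5' and middle probe sets gave -0.32 and the 3' probe set -0.23, each called in the fit over probe sets. The 3' minus 5' difference of Gapdh, a sign of RNA integrity, was -0.03 and -0.07 in control and 0.06 and 0.02 in Npac RNAi, and for Actb 0.64 and 0.68 against 0.69 and 0.68. The call on Gapdh was lost without control array 2 or either Npac array.

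Pgk1, the next enzyme and the first to yield ATP, fell by 0.45 on the log2 scale or 1.37-fold (SE 0.0461, limma adjusted p = 0.00487). It read 13.31 on both control arrays against 12.87 and 12.84, and its 3 probe sets were all lower (-0.45, -0.43 and -0.32). Pgam1, the mutase that follows, did not pass (-0.16, limma adjusted p = 0.0576), but was lower after centring and with spike-in scaling. Pkm, the pyruvate kinase that ends the pathway, read 11.77 and 11.74 in control and 11.46 and 11.48 in Npac RNAi. Its fall was 0.28 on the log2 scale (SE 0.0465, limma adjusted p = 0.0137), small against most named members yet outside the spread of the arrays, and its call was lost without any 1 array.

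Eno3, the muscle enolase, read 7.28 and 7.14 in control and 8.37 and 8.25 in Npac RNAi, a rise of 1.10 or 2.14-fold (SE 0.0799, limma adjusted p = 0.00246). Eno2, the neuronal enolase and a known HIF target, read 5.50 and 5.49 against 6.20 and 6.33, a rise of 0.77 or 1.71-fold (SE 0.0613, limma adjusted p = 0.00296). Both stayed higher in every scaling. Each was read by 1 probe set, and that of Eno2 was dim, at the 29.9th percentile of all genes by level.

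**Figure D3:**
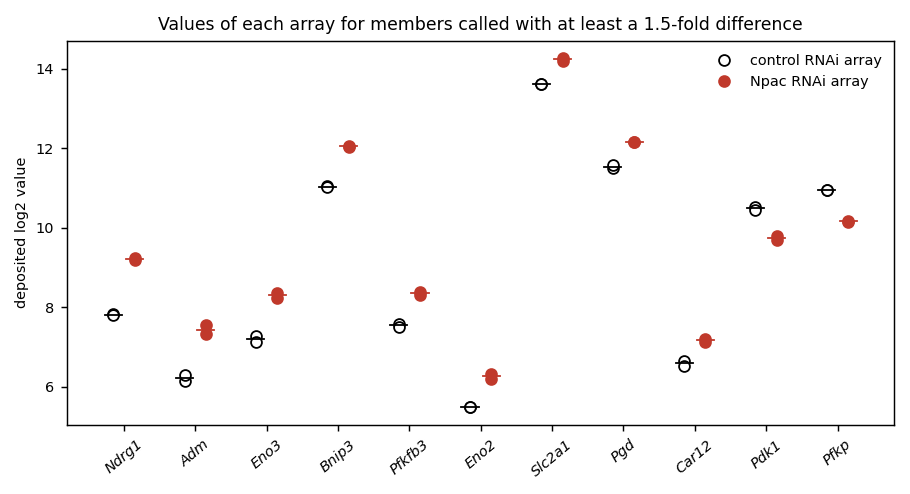
Deposited log2 value on each array for the 11 members called with at least a 1.5-fold difference; open circles are control RNAi arrays, filled circles Npac RNAi arrays and short lines the group means. The groups do not overlap for any of the 11, from Ndrg1 (7.82 against 9.22 in the mean) to Pfkp (10.96 against 10.17). Close arrays and separate groups follow largely from choosing the 11 by their calls on these arrays. Of all genes 74.2% do not overlap.

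The bifunctional Pfkfb enzymes make and break the allosteric activator of phosphofructokinase, and all 3 members rose, where 22.1% of all genes did. Pfkfb3, the form with the strongest kinase activity and a HIF target, read 7.59 and 7.51 in control and 8.31 and 8.40 in Npac RNAi. The groups were well apart at 0.81 or 1.75-fold (SE 0.0624, limma adjusted p = 0.00279). A second, dimmer probe set of Pfkfb3 read -0.07, and the mean of both gave 0.37. Pfkfb2 (0.41, limma adjusted p = 0.012) and Pfkfb4 (0.35, limma adjusted p = 0.0275) rose less. The call on Pfkfb2 was lost with the mean of its 4 probe sets (0.09) and without control array 2 or Npac array 2, and that on Pfkfb4 after quantile normalization, after centring and without either control array or Npac array 1. With spike-in scaling Pfkfb2 was -0.13 and Pfkfb4 -0.19.

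At the fate of pyruvate, 2 of 8 members rose and 4 fell (75.0% called, against 40.8% of all genes). Ldha, the lactate dehydrogenase subunit favouring lactate formation and a classic HIF target, read 12.56 and 12.61 in control and 12.33 and 12.32 in Npac RNAi. It fell by 0.26 on the log2 scale or 1.20-fold (SE 0.0481, limma adjusted p = 0.0185), a step whose call was lost without any 1 array. Ldhb, the subunit favouring pyruvate formation, fell by 0.38 on the log2 scale (SE 0.0468, limma adjusted p = 0.00725), with -0.42 to -0.38 over its 4 probe sets and a call that was lost without control array 2. The lactate and pyruvate carrier Slc16a1 (Mct1) fell as well (-0.47, SE 0.058, limma adjusted p = 0.00723). Slc16a3, the hypoxia-inducible carrier Mct4, was dim and showed no call (0.02, SE 0.0701, limma adjusted p = 0.80).

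The pyruvate dehydrogenase kinases, which switch off the entry of pyruvate into the citrate cycle, parted by isoform. Pdk1, the HIF-driven form, read 10.53 and 10.45 in control and 9.70 and 9.79 in Npac RNAi. It fell by 0.74 on the log2 scale or 1.68-fold (SE 0.0616, limma adjusted p = 0.00319), and 3 of its 4 probe sets were called lower while the fourth was dim (-0.20). Pdk4, the form induced by fasting and fatty acids, rose by 0.48 (SE 0.072, limma adjusted p = 0.011), and Pdk3 rose slightly (0.21, limma adjusted p = 0.0439). The call on Pdk4 was lost without either control array, and that on Pdk3 without any 1 array, after quantile normalization, after cyclic loess and after centring. The change of Pdk4 minus that of Pdk1 was 1.19 and 1.26 on the Npac RNAi arrays and -0.03 and 0.03 on the control arrays. With spike-in scaling Pdk4 had no call (-0.06) and Pdk3 was called lower (-0.33). Pdk2 was dim, below the 25th percentile, with no call (-0.02, SE 0.116).

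In the pentose phosphate pathway, which draws on the product of hexokinase for NADPH and ribose, Pgd rose, Tkt fell and Taldo1 had no call. Pgd, the phosphogluconate dehydrogenase of the oxidative branch, read 11.50 and 11.59 in control and 12.16 on both Npac RNAi arrays. It rose by 0.62 or 1.53-fold (SE 0.0546, limma adjusted p = 0.00362), and its 4 probe sets gave 0.55 to 0.64. Spike-in scaling left 0.08 without a call. The transketolase Tkt of the non-oxidative branch fell by 0.39 on the log2 scale (SE 0.0472, limma adjusted p = 0.00677), and all 3 probe sets were lower. Taldo1, the transaldolase (-0.04, called lower after centring at -0.18), and the phosphoglucomutases Pgm1 (0.01), which links glucose to glycogen, and Pgm2 (0.00), which acts mainly on pentose phosphates, had no call.

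Among the HIF subunits and oxygen sensors 3 of 6 rose and 1 fell (66.7% called, against 40.8% of all genes). Hif1a read 11.96 and 11.90 in control and 12.21 and 12.25 in Npac RNAi, a rise of 0.31 or 1.24-fold (SE 0.0516, limma adjusted p = 0.0146). That value came from the brightest of 4 probe sets. The others read -0.13, 0.00 and 0.17, their mean with it was 0.09 without a call, and the call was also lost without any 1 array. Epas1, the alpha subunit HIF-2 alpha, rose by 0.45 (SE 0.069, limma adjusted p = 0.0115), where its dimmer probe set gave 0.13 and the call was lost without control array 2 or Npac array 2. Arnt, the shared partner, fell by 0.48 on the log2 scale (SE 0.0465, limma adjusted p = 0.00426), on the brightest of 5 probe sets. The other 4 read -0.30 to 0.00, each without a call, and the mean of all 5 was -0.25. The change of Hif1a minus that of Arnt was 0.79 and 0.80 on the Npac RNAi arrays and 0.04 and -0.04 on the control arrays. With spike-in scaling Hif1a was called lower (-0.23) and Epas1 had no call (-0.08).

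Egln1 (Phd2), the main oxygen sensor and itself a HIF target, rose by 0.56 or 1.48-fold (SE 0.0525, limma adjusted p = 0.00403), and its second probe set gave 0.62. With spike-in scaling its value was 0.02. Egln3 (Phd3), a strongly hypoxia-inducible relative, did not pass on its brighter probe set (0.27, limma adjusted p = 0.0678) and was called higher on the dimmer (0.43). Vhl read 9.14 and 8.95 in control and 8.98 and 9.00 in Npac RNAi. The groups overlapped and no call was made (-0.06, SE 0.0783, limma adjusted p = 0.601), but its dimmer probe set was called lower (-0.29).

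The remaining hypoxia-inducible genes held the largest rises of the set. Ndrg1, a hypoxia and differentiation gene, read 7.84 and 7.80 in control and 9.20 and 9.24 in Npac RNAi. The rise was 1.40 or 2.63-fold (SE 0.0488, limma adjusted p = 0.000798). Of its 5 probe sets 4 were called higher (0.74 to 1.40) and 1 read -0.05, and their mean gave 0.85. By their names, the probe sets that gave 1.40, 1.38 and -0.05 are of a type with probes shared by other transcripts. The others gave 0.74 and 0.80. Adm, the adrenomedullin gene, read 6.14 and 6.31 against 7.34 and 7.55, a rise of 1.22 or 2.33-fold (SE 0.102, limma adjusted p = 0.00325) with 1.08 on its second probe set. Its arrays spread more than those of Ndrg1 but the groups stayed far apart.

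Bnip3, which directs mitochondria to autophagy, read 11.05 and 11.02 in control and 12.04 and 12.05 in Npac RNAi. The rise was 1.01 or 2.02-fold (SE 0.0461, limma adjusted p = 0.00114) and stayed at 0.47 with spike-in scaling. Car12, a membrane carbonic anhydrase, read 6.66 and 6.52 against 7.21 and 7.13 (0.59, SE 0.0706, limma adjusted p = 0.00681). Its other 2 probe sets were dim and had no call, so that the mean of 3 gave 0.26 without a call, and spike-in scaling gave 0.05. Car9, the carbonic anhydrase most used as a hypoxia marker, was 5.80 and 5.89 in control and 5.82 and 5.71 in Npac RNAi. Its groups overlapped and showed no call (-0.08, SE 0.0664, limma adjusted p = 0.394), at the 28.9th percentile by level.

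Of the others, Mif, a cytokine gene and HIF target, fell by 0.33 on the log2 scale (SE 0.047, limma adjusted p = 0.0102), with a call that was lost without control array 2 or Npac array 2. Ankrd37 (0.16), the oxidative folding enzyme Ero1a (0.20, limma adjusted p = 0.0609) and the mitochondrial gene Higd1a (0.02) had no call. The 3 probe sets of Ero1a disagreed in sign (0.20, 0.12 and -0.19). Among the 9 measured genes of this group 4 thus rose, 1 fell and 4 had no call. That is 55.6% called, against 40.8% of all genes and 53% of those at or above the median level.

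**Figure D4:**
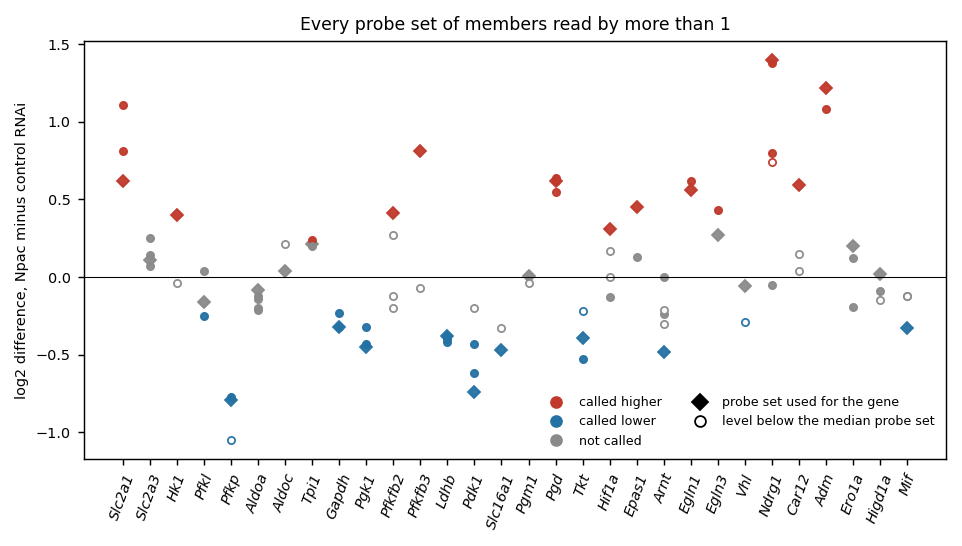
Log2 difference, Npac RNAi minus control RNAi, of every probe set for the 30 members read by more than 1; diamonds are the probe sets used for the gene, open symbols lie below the median probe set by level, and colour marks the call in the fit over all probe sets. No member had probe sets called in both directions, and for 9 of the 30 every probe set was called the same way. The same counts over all genes were not made, so neither count sets the members apart.

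Probe sets gave a check within the arrays, although they share the same RNA. The 47 members were read by 109 probe sets, of which 29 were called higher and 26 lower when each was fitted alone. That is 26.6% and 23.9% of them, against 14.2% and 14.1% of all 45050 probe sets fitted (28.2% in either direction). Every probe set was called in the same direction for Slc2a1, Pfkp, Gapdh, Pgk1, Ldhb, Pgd, Tkt, Egln1 and Adm. How often this holds among all genes with several probe sets was not counted. By their names, the probe sets used for Slc2a3, Aldoa, Tpi1, Ldhb, Pgd, Tkt, Arnt and Ndrg1 are of the type with probes shared by other transcripts, and glycolytic genes have many pseudogenes, so these values are uncertain in that respect.

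Other hypoxia-inducible genes, outside the members, gave 11 higher and 6 lower of 30 measured (median 0.08). That is 56.7% called, against 40.8% of all genes and 53% of those at or above the median level. Spike-in scaling gave 6 and 20 (86.7% called), where 86.9% of all genes were called, most of them lower. The transcriptional repressor Bhlhe40 rose most (2.52, 5.74-fold, SE 0.0844, limma adjusted p = 0.000757), followed in order of p by the haem oxygenase Hmox1 (1.35, SE 0.0468). Pnp, a purine enzyme, fell by 0.68 on the log2 scale (SE 0.0458), and the mitochondrial kinase Ak4 by 0.31, with a call lost without any 1 array. Vegfa, the angiogenic factor and a standard HIF target named here after its values were seen, had no call (0.47, SE 0.146). Kdm3a (0.02) and P4ha1 (0.09), likewise chosen afterwards, had none either on their brightest probe sets. P4ha1 was called lower with the mean of its 2 probe sets (-0.19) and with the probe set of largest interquartile range (-0.48). Partners of HIF and of its degradation gave 5 higher and 0 lower of 12 (41.7% called), a share near that of all genes (40.8%). Among the higher were the coactivators Crebbp (0.55) and Ep300 (0.28). Spike-in scaling gave 0 and 10 (83.3% called, against 86.9% of all genes). Crebbp was 0.14 with the mean of its 4 probe sets, and the call on Ep300 was lost without any 1 array.

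The serine branch, which leaves glycolysis at the product of Pgk1 and feeds one-carbon metabolism, was lower. Of its genes 85.7% were called, against 40.8% of all genes. Of its 7 genes 6 fell and 0 rose (median -0.49), and the 6 were called lower without any 1 of the arrays, and 6 or 7 were lower under each scaling. Psat1, the aminotransferase of this branch, fell by 0.85 on the log2 scale or 1.80-fold (SE 0.0472, limma adjusted p = 0.00156), and the hydroxymethyltransferase Shmt1 by 0.55. The gene without a call on the deposited values was Phgdh, the first enzyme (-0.05). Further glycolytic and gluconeogenic enzymes gave 4 higher and 8 lower of 24, with the mutarotase Galm (0.73) and the phosphatase G6pc3 (0.45) higher and the mitochondrial carboxykinase Pck2 (-0.43) and Tigar (-0.40), a regulator that opposes Pfkfb3, lower. The call on Tigar was lost without control array 1.

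Pyruvate dehydrogenase and citrate cycle genes gave 3 higher and 9 lower of 25 (median 0.00). That is 48.0% called, against 40.8% of all genes and 53% of those at or above the median level. The mitochondrial pyruvate carrier Mpc1 rose by 0.74 (SE 0.0452, limma adjusted p = 0.00179) and the dehydrogenase subunit Ogdh by 0.49, while Suclg2 (-0.35) and Mdh1 (-0.43) fell, with calls lost without control array 2 and control array 1 respectively. Other pentose phosphate enzymes gave 4 higher and 2 lower of 10 (60.0% called, against 40.8% of all genes). The isomerase Rpia rose (0.39) and the epimerase Rpe fell (-0.67). Glycogen genes gave 3 higher and 1 lower of 12 (33.3% called, below the 40.8% of all genes). They were led by the phosphorylase Pygl (1.11, SE 0.0737) and the branching enzyme Gbe1 (0.91, SE 0.134). The call on Gbe1 was lost without control array 2. With spike-in scaling these 3 lists gave 0 higher and 23 lower, 0 and 8, and 2 and 10, and the further glycolytic enzymes 0 and 21. Of all 18194 genes 906 were higher and 14897 lower with that scaling. The balance of these lists thus rests on the scaling of the arrays.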

How the data were processed

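Total RNA was hybridised to 4 Affymetrix arrays of 1 colour, 2 per group, with groups and replicate numbers from the sample titles. The authors deposited log2 values, 1 per probe set and array, and RMA is named without a version in the submitters' processing notes. That they are log2 follows from their range, 2.78 to 15.05. RMA equalises arrays, so a change shared by most transcripts is removed, and the number of arrays limits precision.

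Of 45101 probe sets, 34945 carried 1 symbol and 13 control probe sets for mouse genes were kept with them. Symbols were updated through Entrez identifiers to GRCm38.p6 (34754 matched, 204 kept). Where a gene had several probe sets, the brightest over the 4 arrays stood for it. The test was lmFit and eBayes of limma 3.58.1 (R 4.3.3), adjusted by Benjamini-Hochberg over 18194 genes, with 2 residual and 2.28 prior degrees of freedom. Alternatives were 4 other scalings, other variance models, filters, probe set rules and thresholds, a replicate block and leaving out each array. Members called with at least 1.5-fold and 6 further members (Hk2, Gapdh, Ldha, Pkm, Hif1a and Vhl) have all array values printed, others where a result needed them. From each further list up to 2 genes per direction, by adjusted p, could be named. Members and lists were chosen with earlier results of these data known. Same-numbered replicates showed no pairing (correlation of deviations -0.166).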

Additional observations from a re-analysis of the deposited data

Results flagged for a closer look

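The 24 poly-A spike-in probe sets were not tested as genes and entered comparisons only through the spike-in scaling. They had a mean level of 9.20 on the Npac RNAi arrays and 8.66 on the control arrays, a difference of 0.54. In 24 of 24 probe sets the Npac RNAi arrays were higher. They are repeated readings of a few bacterial transcripts and not independent ones. Groups of 2 arrays were too small for a search for single arrays that stand apart.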

How the results depend on the processing

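The 19 higher and 11 lower members, and 7426 calls over all genes, were recounted under each alternative. Higher members numbered 7 without moderation, 6 with spike-in scaling, 11 at an adjusted p under 0.01 and 9 at 1.5-fold or more. Lower members numbered 31 with spike-in scaling (14897 of all genes), 7 at an adjusted p under 0.01 and 2 at 1.5-fold or more. Calls over all genes were 2553 without moderation, 15803 with spike-in scaling, 3129 at the stricter threshold, 1842 at 1.5-fold or more and 4376 with the replicate number as a block, which gave 15 higher and 9 lower members. A crossed replicate block, added after seeing the data, gave 7033 calls with 16 higher and 11 lower members. Leaving out 1 array gave 3088 to 4731 calls, 10 to 15 higher and 6 to 9 lower members. It lowers the residual degrees of freedom, and the lone array is assumed to vary like the other group. Of the 30 calls, 16 were kept without any 1 array.

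With spike-in scaling 18 members went from above to below 0: Slc2a3 (-0.42), Hk1 (-0.14), Hk2 (-0.44), Pfkm (-0.13), Aldoc (-0.50), Tpi1 (-0.33), Pfkfb2 (-0.13), Pfkfb4 (-0.19), Pdk3 (-0.33), Pdk4 (-0.06), Slc16a3 (-0.52), Pgm1 (-0.53), Hif1a (-0.23), Epas1 (-0.08), Egln3 (-0.27), Ankrd37 (-0.38), Ero1a (-0.34) and Higd1a (-0.52). A constant subtracted from every gene does this by construction. Among them Tpi1, Pdk3 and Hif1a went from a call higher to a call lower. The other turns in sign were of members without a call. Centring turned Slc2a3 (-0.03), Hk2 (-0.04), Aldoc (-0.10), Slc16a3 (-0.12), Pgm1 (-0.13) and Higd1a (-0.12). Cyclic loess turned Aldoc (-0.01), Pdk2 (0.09), Pgm1 (-0.04) and Car9 (0.04), and quantile normalization Aldoc (-0.09), Pdk2 (0.09), Pgm1 (-0.12) and Taldo1 (0.01). The mean of probe sets turned Pgm1 (-0.01) and Higd1a (-0.08), and the probe set with the largest interquartile range the same members (-0.04 and -0.15). With 1 array left out, Pdk2 ran from -0.13 to 0.09, Slc16a3 from -0.03 to 0.08, Pgm1 from -0.02 to 0.05, Higd1a from -0.02 to 0.05 and Vhl from -0.15 to 0.04.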
